A study of Caenorhabditis elegans with 2 samples.

Results

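The genes of the RNase P RNA (rpr-1) and the RNase MRP RNA (mrpr-1) of Caenorhabditis elegans were examined for binding of the zinc finger protein SEA-2, as 2 of 46890 annotated nuclear genes. They were chosen by name, with their measured peak values in the same lists already known, and both were retained with every candidate peak whose summit lay in the gene or within 1000 bp of it. Chromatin immunoprecipitation followed by sequencing (ChIP-seq) had been carried out on whole young adults, 64 hours old, grown from starved first-stage larvae hatched after bleaching. All animals were of strain OP586, which carries the transgene wgIs586 (sea-2 fused to TY1, EGFP and 3xFLAG, with unc-119(+) as rescue) in an unc-119 (tm4063) background. The descriptions name an anti-GFP antibody, although the antibody label reads sea-2. The 2 biological replicates form the only group, so no animals without the fusion and no other precipitation were analysed here. Whole animals were used, so the cells in which a peak arose cannot be told apart.

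RNase P is the ribonucleoprotein that cuts the leader from the 5′ end of precursor tRNAs, and RNase MRP is its relative that takes part in the processing of precursor ribosomal RNA. Each holds a single catalytic RNA, and both share most of their protein subunits in the eukaryotes in which they have been purified. In vertebrates the 2 RNA genes are transcribed by RNA polymerase III from promoters that lie wholly upstream of the gene. Such promoters combine a proximal sequence element, which is bound by the SNAPc complex, with a TATA box, and transcription ends at a run of T.

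The 100 bases before mrpr-1 and the gene itself are shown because the strongest pooled SEA-2 summit fell near the gene start, 22 bp past the first base. The sequence is the RefSeq sequence of WBcel235, which is the ce11 sequence, on the plus strand. Capitals mark words that recur in the corresponding part of rpr-1, with at most 1 mismatch.
mrpr-1 upstream, chrII:7200133-7200232: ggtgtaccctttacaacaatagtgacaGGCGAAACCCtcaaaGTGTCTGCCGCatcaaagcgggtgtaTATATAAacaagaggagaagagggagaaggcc
mrpr-1 gene, chrII:7200233-7200418: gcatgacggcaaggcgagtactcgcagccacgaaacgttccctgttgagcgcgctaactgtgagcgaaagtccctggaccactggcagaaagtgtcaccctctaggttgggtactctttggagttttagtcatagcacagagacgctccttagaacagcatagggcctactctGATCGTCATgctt
The capitals upstream are 3 words, of 10, 11 and 7 bases, and the capitals in the gene are the longest word shared by the 2 RNA genes, of 9 bases. The sequence of rpr-1 is described but not printed.

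Both RNA genes carried a strong SEA-2 peak at the 5′ end of the gene. The pooled signal at rpr-1 was 206.4 and that at mrpr-1 was 109.1, against a median of 24.9 over the 82563 candidates of the pooled ranked list. The signal is the value that the authors' peak caller gave to each peak, on a scale that is not given in the sources used here. Read depth is unknown, so no counting interval can be given.

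The peak at rpr-1 was among the strongest of the series. The gene (WBGene00045238, chromosome I, 13463955 to 13464207, plus strand, 253 bases) is annotated as a single-exon non-coding RNA. The signal of its strongest candidate was 206.4 in the pooled list, 126.9 in replicate 1 and 79.7 in replicate 2. These values ranked 33 of 82563, 25 of 51269 and 59 of 50405 candidates. In all 3 lists the candidate was far above the list's own median, by 8.28 times in the pooled list, 6.69 times in replicate 1 and 4.90 times in replicate 2. It ranked 15 among the 453 peaks of the pooled optimal list. All of these met an irreproducible discovery rate (IDR) of 0.01 or less in the second pooled ranked list. Of these peaks, 328 also did so in the comparison of the true replicates. The IDR is low where a peak ranks high, and similarly so, in both lists compared.

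The peak at mrpr-1 was weaker and repeated less firmly. This gene (WBGene00045095, chromosome II, 7200233 to 7200418, plus strand, 186 bases) is likewise a single-exon non-coding RNA. Its strongest candidate had a signal of 109.1 in the pooled list, 63.3 in replicate 1 and 47.5 in replicate 2. It ranked 171 of 82563, 176 of 51269 and 258 of 50405 candidates, and 128 of 453 in the optimal list. The signal at rpr-1 exceeded that at mrpr-1 in every list, by 1.89 times in the pooled list, 2.00 times in replicate 1 and 1.68 times in replicate 2. With 2 replicates and genes chosen with these values known, this order is a description without a test.

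Each gene had exactly 1 summit on the optimal list and 1 on the conservative list, which rests on the comparison of the true replicates. Both members therefore had an optimal summit within 1000 bp, against 869 of 46890 nuclear genes (1.85%), 2.49% of protein-coding genes, 11.1% of 612 tRNA genes, 11.8% of 346 snoRNA genes and 10.1% of 129 snRNA genes. Over the tRNA, snoRNA, snRNA and rRNA genes together the share was 123 of 1107 (11.1%). In the conservative list the share of nuclear genes was 1.75%. Since known peaks chose the members, nothing about the 2 genes can be read from their count.

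The replicates' own thresholded lists separated the genes. At rpr-1 both replicates passed, with IDR values of 0.000178 in replicate 1 and 0.000757 in replicate 2. Over all nuclear genes, 158 of 46890 (0.337%) had a thresholded summit of both replicates. Of the 123 tRNA, snoRNA, snRNA and rRNA genes with an optimal summit, 25 had one of both replicates, and 15 of these were snoRNA genes. At mrpr-1 replicate 1 passed narrowly at an IDR of 0.00781, and replicate 2 lay just outside at 0.0136. The share of nuclear genes with a thresholded summit was 0.742% in replicate 1 and 0.552% in replicate 2. In the comparison of true replicates the pooled candidates reached IDR values of 9.95e-05 at rpr-1 and 0.00105 at mrpr-1. The deposited q values were less extreme. For rpr-1 the q value was 0.0462 in the pooled list, 0.0480 in replicate 1 and 0.0769 in replicate 2. For mrpr-1 it was 0.0557, 0.0708 and 0.0602 in the same order. A q value above 0.05 was common, as 228 of the 453 optimal peaks had one.

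The ratio between the replicates at both genes lay within the quartiles over the optimal list. Replicate 1 had 1.59 times the signal of replicate 2 at rpr-1 and 1.33 times at mrpr-1. Over the 428 distinct optimal peaks with a candidate of both replicates within 200 bp, this ratio had a median of 1.29 and quartiles of 1.00 and 1.59. The pooled signal was close to the sum of the replicates' signals, at 0.999 of it for rpr-1 and 0.985 for mrpr-1, against a median of 0.999 over those 428 peaks.

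**Figure D1:**
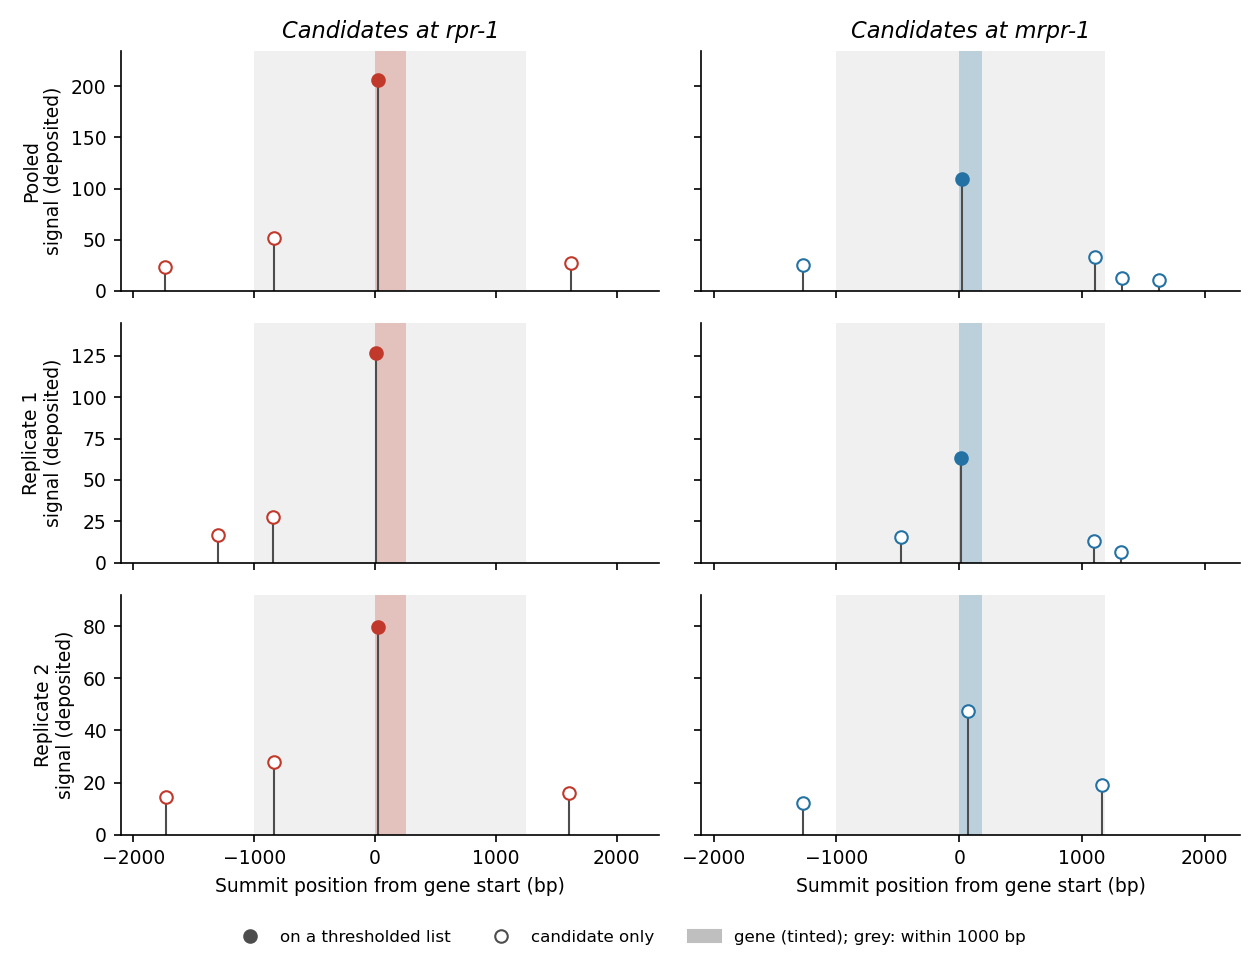
Signal of every candidate (y axis, deposited peak caller value, scaled separately in each row) against the position of its summit from the gene start (x axis, bp) at rpr-1 (left) and mrpr-1 (right), in the pooled list and in each replicate, with filled points for candidates on a thresholded list. In all 6 panels the tallest candidate stands inside the gene, at most 75 bp past its first base, and the only open one among these is replicate 2 at mrpr-1, with a signal of 47.5.

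Summits fell just inside the 5′ end of both genes. At rpr-1 the summit lay 23 bp past the first base in the pooled list, 7 bp past it in replicate 1 and 21 bp past it in replicate 2, a spread of 16 bp. At mrpr-1 it lay 22 bp, 16 bp and 75 bp past the first base in the same order, a spread of 59 bp. The pooled summits of the 2 genes were within 1 bp of each other in position relative to the gene start. In the single replicates they were further apart, at 7 and 16 bp in replicate 1 and 21 and 75 bp in replicate 2. An optimal summit lay inside 302 of 46890 genes (0.644%). Where small RNA genes had an optimal summit within 1000 bp, the strongest lay inside 29 of 68 tRNA genes and 8 of 13 snRNA genes. For snoRNA genes this was 6 of 41. Among the other small RNA genes with an optimal summit within 1000 bp, the strongest lay at a median of 18 bp past the first base for 68 tRNA genes, 52 bp past it for 13 snRNA genes and 31 bp before it for 41 snoRNA genes.

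All other candidates in each window were weaker and on no thresholded list. The next strongest pooled candidate within 1000 bp of rpr-1 had a signal of 51.96, 858 bp away from the summit, so that the summit exceeded it 3.97 times. That candidate ranked 4226 of 82563, at 2.08 times the list median. For mrpr-1 the next had 32.6, at a distance of 1088 bp, and was exceeded 3.34 times; it stood at 1.31 times the list median. These 2 candidates were also the ones nearest to the edge of the window on its inner side, 835 bp before rpr-1 and 925 bp after mrpr-1. The nearest outside it had signals of 26.6, 1372 bp after rpr-1, and 12.7, 1145 bp after mrpr-1. Pooled candidates in the windows numbered 2 at each gene. The second pooled ranked list held a further 2 after rpr-1, with signals of 6.59 and 8.56. Those of the replicates numbered 2 each at rpr-1, and 3 in replicate 1 and 2 in replicate 2 at mrpr-1. Of all 82563 pooled candidates, 0.549% were on the optimal list.

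Protein-coding gene starts lay closer to the summit at mrpr-1 than to that at rpr-1. The gene rpr-1 lies in an intron of 2023 bases of ints-8, on the opposite strand, where ints-8 encodes a subunit of Integrator, the complex known for 3′ end processing of snRNAs. Its summit was 6393 bp from the ints-8 start, downstream on the strand of ints-8. The body of ints-8 held 12 pooled candidates, of which 2 were on the optimal list, the other with a signal of 80.5 and a rank of 466. The gene mrpr-1 stands alone between protein-coding genes. Its summit lay 294 bp upstream of pcrg-1, whose human relative is the parkin co-regulated gene, and 690 bp upstream of E04F6.6 on the other strand. Whether the mrpr-1 peak belongs to the RNA gene or to these promoters cannot be told apart by position. The bodies of pcrg-1 and E04F6.6 held 0 optimal summits.

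Both summits lay in sequence that is unique in the genome. None of the 171 overlapping 31-base words within 100 bp of the summit occurred a second time in the genome, and the same held for all 223 in rpr-1 and all 156 in mrpr-1. Within 100 bp of the summit GC content was 57.7% at rpr-1 and 54.2% at mrpr-1, against 49.1% ± 7.13 (SD, n = 445) over distinct optimal peaks and 40.1% ± 7.11 (SD, n = 82563) over pooled candidates. The part of GC content in the signal was not tested. The peak interval at rpr-1 was 76 bp wide, one of 15 in the optimal list under the usual 304 bp, which was the width at mrpr-1.

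Against other small RNA genes, the signal of rpr-1 was near the top and that of mrpr-1 in the upper tail. Of 1107 tRNA, snoRNA, snRNA and rRNA genes, 8 (0.723%) had a stronger candidate within 1000 bp than rpr-1, of which 6 were snoRNA genes and 2 were tRNA genes. For mrpr-1 this was 52 genes (4.70%), namely 26 snoRNA, 15 tRNA, 9 snRNA and 2 rRNA genes. The median over the 1006 of these genes with a candidate was 48.3. Some of these genes lie within 1000 bp of one another and share a candidate, so they are not independent.

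**Figure D2:**
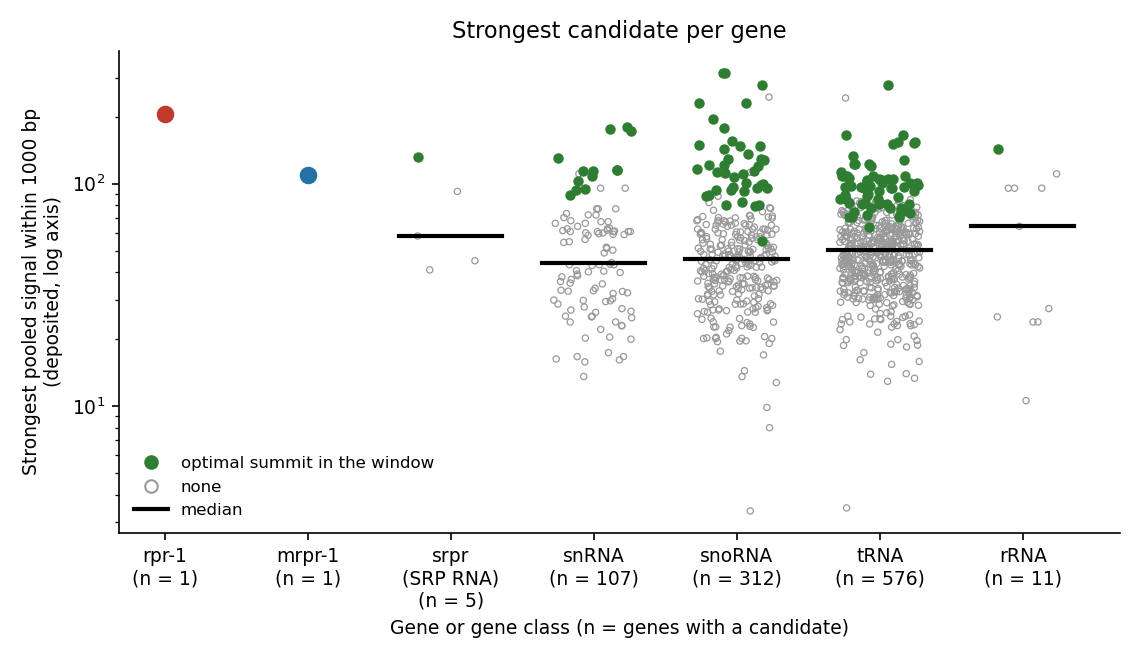
Signal of the strongest pooled candidate within 1000 bp (y axis, deposited value, log axis) for rpr-1, mrpr-1 and each gene of the srpr, snRNA, snoRNA, tRNA and rRNA classes (x axis), with filled points for genes that have an optimal summit, open points for the others and a bar at the median. The point of rpr-1, at 206.4, stands above all snRNA genes, whose highest value is 179.8, and that of mrpr-1, at 109.1, stands above the median of each class.

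The genes most like each member were sought by the distance between log10 ranks in the 2 replicates, over 847 small RNA genes with a candidate in both. With 2 replicates this is a description of rank and nothing else. Closest to rpr-1, with ranks of 25 and 59, were the snoRNA gene K11H12.12 (ranks 22 and 41), the tRNA gene Y95D11A.4 (26 and 30), the spliced leader gene sls-2.4 (43 and 94), an snRNA gene on chromosome III that shares the name R07E5.16 with other copies (35 and 116) and the snoRNA gene T03F7.8 (36 and 117). Positions differed, since the candidate counted for K11H12.12 lay 897 bp before that gene and the one for Y95D11A.4, which is not on the optimal list, 353 bp past its first base.

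Closest to mrpr-1, with ranks of 176 and 258, was sls-2.8, a gene of an SL2 spliced leader RNA, which is joined to the mRNAs of downstream genes in operons (198 and 246). Its pooled signal was 107.9, close to the 109.1 of mrpr-1, with the summit 8 bp before the gene. Next came K10G6.10, a snoRNA gene whose candidate lay 846 bp past its first base in the body of sea-2, the gene that the transgene carries in added copies (175 and 295), and mir-1831, which the annotation classes as an snRNA (197 and 294). The last were a tRNA gene on chromosome X (191 and 332) and another on chromosome III (212 and 337), which the annotation leaves without a name.

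**Figure D3:**
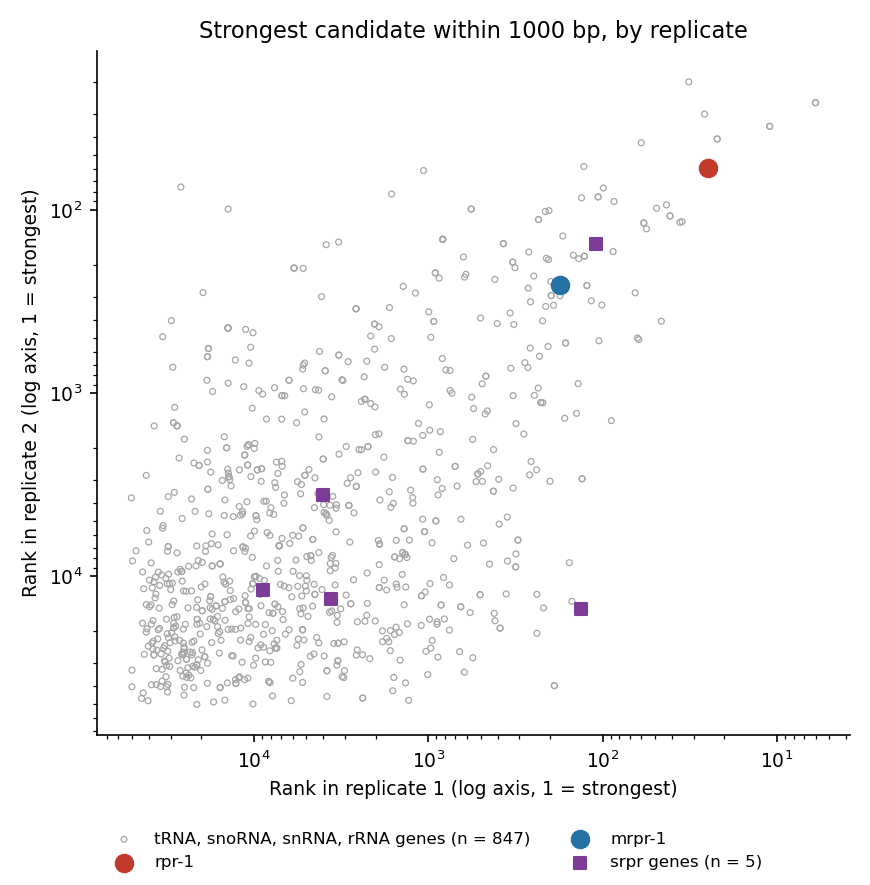
Rank of the strongest candidate within 1000 bp in replicate 1 (x axis) and replicate 2 (y axis), both on log axes with the strongest towards the upper right, for rpr-1, mrpr-1, 5 srpr genes and 847 other small RNA genes. The point of rpr-1 lies at ranks 25 and 59 and that of mrpr-1 at 176 and 258, inside the sparse cloud of genes that rank high in both replicates.

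Of the 18 genes for protein partners and for the transcription machinery of these RNAs, 0 had an optimal summit, against 2.49% of protein-coding genes, a share at which none among 18 is no result about them. Together with other RNAs of RNA polymerase III they form a list of 24 genes, which had 1 with an optimal summit within 1000 bp (4.17%, against 1.85% of all nuclear genes), and 22 had a pooled candidate, with a median signal of 41.2. The 4 popl genes, which encode subunits of RNase P and RNase MRP, had 0 optimal summits. Their strongest candidates were 41.5 at popl-5, 34.1 at popl-1 and 28.4 at popl-4, and popl-7 had no candidate in the pooled list. The gene hoe-1, which encodes the RNase Z that trims tRNA 3′ ends, had 36.1. None of the 7 genes of SNAPc subunits had an optimal summit, and their signals ran from 24.6 at snpc-4 to 52.8 at snpc-3.4. The TATA-binding protein gene tbp-1 had 59.7, the RNA polymerase III initiation factor gene brf-1 had 45.3, and the 4 rpc genes of polymerase III subunits had between 17.98 and 46.4. Each value is that of the strongest candidate in the gene or within 1000 bp. At popl-5, popl-1, snpc-3.4, snpc-4, tbp-1 and brf-1 that candidate lay outside the gene.

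Among the listed srpr genes and yrn-1, which are other RNAs of the kind that RNA polymerase III makes, the single called gene was srpr-2.2. The tRNA and rRNA genes were not in this list, and 68 of 612 tRNA genes had an optimal summit within 1000 bp. The srpr genes encode the RNA of the signal recognition particle, which directs secretory proteins to the endoplasmic reticulum. At srpr-2.2 the signal was 132.4 in the pooled list, 75.1 in replicate 1 and 54.97 in replicate 2, and the summit lay inside the gene, 93 bp past its first base. Both replicates had a thresholded summit there. At srpr-2.1 the signal was 92.3 in the pooled list, with 69.9 in replicate 1 and 19.9 in replicate 2, and only replicate 1 passed. The other 3 srpr genes had 58.2, 45.05 and 40.97. Of the 269 overlapping 31-base words in each of srpr-2.1 and srpr-2.2, 195 and 191 occurred again in the genome, and how the authors' alignment treated reads from such copies is not known. The Y RNA gene yrn-1 had no candidate in the pooled list, and its candidates had signals of 22.5 in replicate 1 and 15.5 in replicate 2.

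Words upstream of rpr-1 and mrpr-1 were shared in the same order and at the same spacing. The first, GGCGNAACCC, lay from 71 to 62 bases before rpr-1 and from 73 to 64 before mrpr-1. The second, GTGTCNGCCGC, lay from 56 to 46 bases before rpr-1 and from 58 to 48 before mrpr-1. The third, TATATAA, which holds the letters of a TATA box, lay from 30 to 24 bases before rpr-1 and from 32 to 26 before mrpr-1. All 3 were displaced by the same 2 bases between the genes. Over the 20 aligned bases between the words, 4 were identical. The words were taken from these 2 sequences after the peaks were known and were not tested against chance. They do not overlap one another, and matches were sought on both strands.

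The first and second words were found upstream of few other genes, within 100 bases. GTGTCNGCCGC was found at 14 of 46890 nuclear genes (0.0299%), of which 6 were snoRNA genes and 0 were tRNA or snRNA genes. GGCGNAACCC was found at 31 (0.0661%), including 17 of 129 snRNA genes (13.2%). TATATAA was common, at 1649 genes (3.52%) and at 18 of 129 snRNA genes (13.95%). Besides the members, 1 of 12 genes with GTGTCNGCCGC and 27 of 1647 with TATATAA had an optimal summit within 1000 bp. The share was 1.85% over all nuclear genes and 11.8% over snoRNA genes. All 3 words together were found upstream of 2 genes, rpr-1 and mrpr-1, from which they had been derived. This count required TATATAA without a mismatch. The lfor-1 window printed below holds TTTATAA, with 1 mismatch, after the first and second words. The layout with 1 mismatch in the third word is therefore not confined to rpr-1 and mrpr-1, and it was not counted over all genes.

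The first and second words together were found upstream of 5 genes. Of the 3 that are not the source of the words, 1 had an optimal summit within 1000 bp, against 1.85% of all nuclear genes and 11.8% of snoRNA genes. This was the snoRNA gene F59C6.15, with a signal of 93.99 and a summit 61 bp before the gene. The non-coding RNA genes lfor-1 and lfor-2 had no optimal summit, and their strongest candidates had signals of 51.3 at lfor-1 and 43.5 at lfor-2. The spacing was the same at all 5, with the first word beginning 15 bases before the second. The windows upstream of sls-2.8, which has the first word and a peak, and of lfor-1, which has the first and second words but no optimal peak, are shown for comparison with that of mrpr-1 (capitals mark the words).
sls-2.8 upstream, chrIII:12250365-12250464, plus strand: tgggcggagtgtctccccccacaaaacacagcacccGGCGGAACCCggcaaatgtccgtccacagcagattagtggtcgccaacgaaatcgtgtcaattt
lfor-1 upstream, chrII:14636094-14636193, minus strand: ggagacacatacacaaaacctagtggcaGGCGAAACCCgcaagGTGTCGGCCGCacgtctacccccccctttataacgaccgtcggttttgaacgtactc
The first word thus stood with a peak at mrpr-1 and sls-2.8 and without one at lfor-1, and of the 29 genes that hold it besides rpr-1 and mrpr-1, 4 had an optimal summit within 1000 bp. Of these 29 genes 17 were snRNA genes and 5 were snoRNA genes, classes in which 10.1% and 11.8% of all genes had one.

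**Figure D4:**
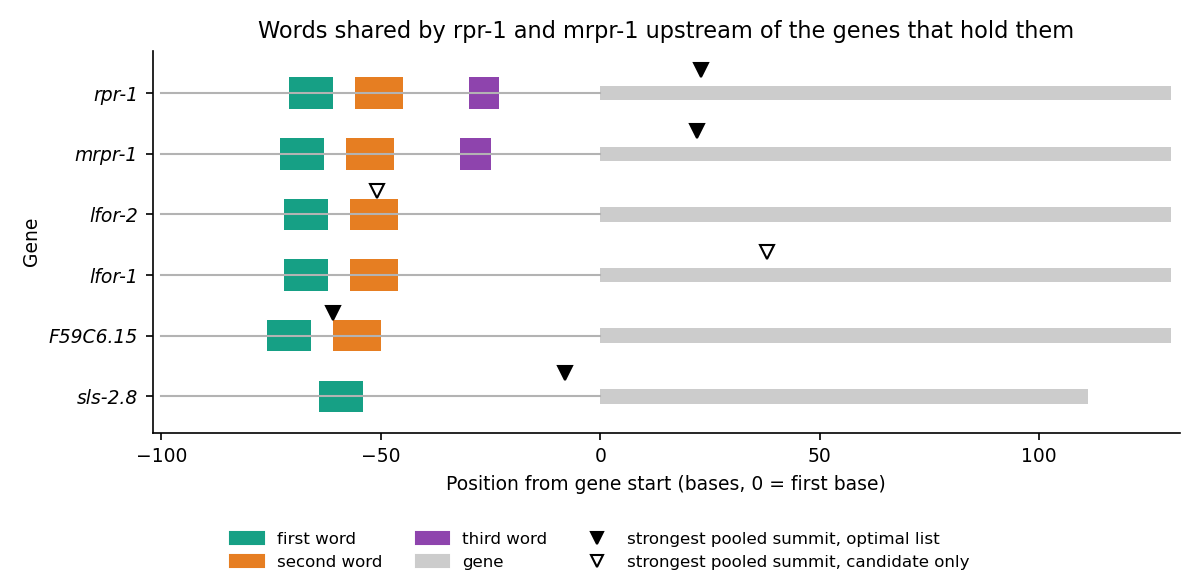
Positions of the 3 shared words (coloured boxes) within 100 bases upstream of 6 genes (one per row; x axis in bases from the gene start), with the first part of each gene in grey and a triangle at the summit of its strongest pooled candidate, filled where that summit is on the optimal list. The boxes of rpr-1 and mrpr-1 line up with a shift of 2 bases, and the summits of these genes, at 23 and 22 bp, lie downstream of the words.

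Around SEA-2 summits in general the words were rare. Within 100 bp of the summit GTGTCNGCCGC was present at 7 of 445 distinct optimal peaks (1.57%), against 0.328% of pooled candidates. GGCGNAACCC was present at 6 (1.35%), against 0.0921% of candidates, and TATATAA at 11 (2.47%), against 2.56% of candidates. The peaks of rpr-1 and mrpr-1, from which the words were taken, are counted among the matches of each word. The shares among optimal peaks are thus partly fixed by that choice, and their difference from the candidates was not tested. These matches do not show which protein bound there.

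At the 3′ end both genes ran into T. A run of 5 T lay at the end of rpr-1 and one of 4 T at the end of mrpr-1, within a window of the last 5 bases of the gene and the 10 after it. In the same window TTTT was found at 93.8% of tRNA genes, 38.2% of snoRNA genes, 21.7% of snRNA genes, 14 of 20 rRNA genes and 32.7% of protein-coding genes. Within the RNA genes the longest common word, GATCGTCAT, lay at bases 210 to 218 of rpr-1 and 174 to 182 of mrpr-1, which ends 35 bases before the end of rpr-1 and 4 before that of mrpr-1.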

How the data were processed

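ChIP-seq peak lists of 2 biological replicates were used. Per the labels and the deposited file lists, the authors made 8 peak lists on ce11, ranked and thresholded by IDR, for each replicate and for the replicates together. The aligner was not given in the sources used here, nor was the peak caller, and read depth is unknown. The deposited values are a signal per peak, a −log10 q value, a −log10 IDR and a score scaled by the authors from 0 to 1000. The longer pooled ranked list, which compares the true replicates, gave the ranks. All 431 conservative peaks met its IDR threshold of 0.01, and all 453 optimal peaks met that of the second pooled ranked list.

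Summits were assigned to the Ensembl release 115 annotation of WBcel235, without mitochondrial genes. No peak ran past its chromosome in the RefSeq sequence. Distinct peaks were those with no stronger summit within 200 bp. Words shared upstream were ungapped matches of at least 7 bases with at most 1 mismatch. Assignment and counting were tested on simulated summits. Members, gene lists and words were chosen with earlier results of these data known, so no test was run. The genes named were the members, genes within 1000 bp, the pathway list and the 5 small RNA genes nearest to each member in replicate ranks. F59C6.15, lfor-1 and lfor-2 were named after their values were seen. Alternatives were other lists, windows, overlaps and rankings. Tables were handled with pandas 2.3.3 and numpy 2.4.6 in Python 3.11.15, the interval of the share with scipy 1.17.1, and plots with matplotlib 3.10.9.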

Additional observations from a re-analysis of the deposited data

How the results depend on the processing

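The count of 1 thresholded summit at rpr-1 held under all 10 alternatives run, and that at mrpr-1 under 9 of 10. Leaving out a replicate gave 1 at rpr-1 either way, and from 0 (without replicate 1) to 1 (without replicate 2) at mrpr-1, where replicate 2 missed the IDR threshold. As a share of its list, the rank of the strongest candidate was the top 0.0400% at rpr-1 (0.0488 to 0.117% in a single replicate) and the top 0.207% at mrpr-1 (0.343 to 0.512%). It moved by more than the spread between replicates under 1 of 9 alternatives at rpr-1 and 2 of 9 at mrpr-1. In each of these a replicate was left out. The cause was not tested, and the lists compared differ in length. In the second pooled ranked list, 70 candidates passed yet were not kept in the optimal list. Leaving out those that the pooled ranked list also held left 82494 of its 82563 candidates. The strongest candidate then stood in the top 0.0182% (rank 15) at rpr-1 and the top 0.158% (rank 130) at mrpr-1. Ranking by IDR moved both by less than the spread between replicates. The share of nuclear genes with an optimal summit, 1.85%, was 0.644% inside genes, 1.45% within 500 bp, 11.1% of small structural RNA genes, and between 0.552% and 0.742% when either replicate was left out. No paired analysis was possible because the design has 1 group. Depth is unknown and no control precipitation was analysed here, so a general affinity of these regions cannot be told apart from binding.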
